A study of Mus musculus with 12 samples.

Results

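Flavin-containing monooxygenases (FMOs) were followed in mouse embryonic fibroblasts through the 4 genes Fmo1, Fmo2, Fmo4 and Fmo5, out of 55573 genes in the expression table. They were taken by gene name, and the set was selected on measured values of Fmo2, namely a level that was high at day 21 in vector cells and low in the other 3 groups. All differences of Fmo2 between groups are therefore given as a description, with no test. The fibroblasts came from β-actin-TVA/p53-/- mice, so all 4 groups lacked p53 and carried TVA, the avian virus receptor, under the β-actin promoter. They had been given the avian retrovirus RCAS with HOXB13, a homeobox transcription factor, or RCAS with GFP, called vector here. Cells of both viruses were plated in triplicate wells in DMEM with 5% serum. The plate for day 1 was taken when its cells were confluent, and the second plate then received OsteoMAX-XF, an osteogenic differentiation medium, until day 21. The groups were HOXB13 at day 21, vector at day 21, HOXB13 at day 1 and vector at day 1, with 3 libraries each. Day, medium and plate cannot be told apart in this design. The labels do not tie wells to separate cultures or animals, so the p-values here speak of variation among wells alone, and that variation may be technical.

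FMOs are enzymes of the endoplasmic reticulum membrane that carry FAD, take electrons from NADPH and put an oxygen atom from O2 onto nitrogen or sulfur atoms of drugs, dietary amines and thioethers. Unlike cytochrome P450 enzymes, they need no separate reductase. FMO1 is a broad-range form of mouse liver and kidney that can also turn hypotaurine into taurine. FMO2 is the main form of the lung, FMO4 has few known substrates, and FMO5 acts on carbonyl groups as a Baeyer-Villiger monooxygenase. In the mouse genome (GRCm38, GENCODE M21), Fmo4 (ENSMUSG00000026692, chromosome 1, 162793188 to 162813972), Fmo1 (ENSMUSG00000040181, 162829561 to 162866610) and Fmo2 (ENSMUSG00000040170, 162874317 to 162898726) lie side by side on the minus strand. Fmo5 (ENSMUSG00000028088, chromosome 3, 97628804 to 97655282) lies on the plus strand. No other annotated gene overlaps any of the 4 members.

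Promoters of the 3 members with an entry in the promoter table, Fmo2, Fmo4 and Fmo5, are shown because all of them stood higher in vector than in HOXB13 cells at day 21. Fmo1 was not matched. Each window holds 250 bases before and 50 after a RefSeq start (GRCm38.p6), 5′ to 3′ on the gene's strand, with motif matches in capitals. Fmo2 has 2 such starts, and their windows overlap. RefSeq starts can lie inside the gene as GENCODE draws it. The Fmo4 window lies wholly within the GENCODE span of Fmo4 (162793188 to 162813972), so sequence before that span was not searched. Most of the Fmo5 window, with its motif match, lies after the GENCODE start of Fmo5 at 97628804.
Fmo2 at chr1:162898709-162899008, minus strand: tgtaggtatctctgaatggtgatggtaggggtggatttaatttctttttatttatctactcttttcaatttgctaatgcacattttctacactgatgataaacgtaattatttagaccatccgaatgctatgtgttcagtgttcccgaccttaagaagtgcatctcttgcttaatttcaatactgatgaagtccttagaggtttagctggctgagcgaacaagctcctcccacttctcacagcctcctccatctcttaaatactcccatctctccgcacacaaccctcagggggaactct
Fmo2, inner start, at chr1:162898444-162898743, minus strand: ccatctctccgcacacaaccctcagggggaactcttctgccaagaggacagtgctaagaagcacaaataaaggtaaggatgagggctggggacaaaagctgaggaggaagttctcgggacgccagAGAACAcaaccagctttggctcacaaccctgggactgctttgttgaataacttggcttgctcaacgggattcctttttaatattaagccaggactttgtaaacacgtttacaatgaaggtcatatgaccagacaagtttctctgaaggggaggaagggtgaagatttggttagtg
Fmo4 at chr1:162812500-162812799, minus strand: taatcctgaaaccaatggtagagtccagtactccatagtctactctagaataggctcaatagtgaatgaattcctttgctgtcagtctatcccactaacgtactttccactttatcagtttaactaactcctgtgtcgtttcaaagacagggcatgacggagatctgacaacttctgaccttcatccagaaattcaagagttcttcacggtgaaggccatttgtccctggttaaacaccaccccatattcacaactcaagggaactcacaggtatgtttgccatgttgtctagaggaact
Fmo5 at chr3:97628769-97629068, plus strand: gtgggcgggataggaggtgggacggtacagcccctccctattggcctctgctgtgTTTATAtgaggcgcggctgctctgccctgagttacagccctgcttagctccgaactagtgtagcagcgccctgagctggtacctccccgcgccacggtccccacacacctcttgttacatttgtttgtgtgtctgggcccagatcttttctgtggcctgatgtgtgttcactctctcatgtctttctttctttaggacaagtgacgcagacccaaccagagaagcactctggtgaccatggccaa
The letter strings searched on both strands were CCAATAAA and CTCGTAAA, which HOXB13 binds in vitro, TATAAA of the TATA box and AGAACA of the glucocorticoid receptor half-site. They occur in 1.12%, 0.131%, 13.6% and 19.0% of the 32851 promoter windows of this length. The outer Fmo2 window and the Fmo4 window held none of these. The inner Fmo2 window held AGAACA at position -125 from the start, and the Fmo5 window held TATAAA on the other strand, printed as TTTATA, at position -195 from its start. GC content was 41.3% in the outer and 47.7% in the inner Fmo2 window, 42.7% in the Fmo4 window and 56% in the Fmo5 window, against a median of 52.7% over all windows. Matches are strings of letters and do not show binding.

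Levels are gene reads per 1000000 reads of the library size as scaled by the authors (RPM). Gene reads ran from 11109392 to 15154317 per library, and 3 reads over a group came to between 0.0614 and 0.0793 RPM, the floor used where a group had no read. Hoxb13 followed the labels, with means of 248 RPM in HOXB13 and 0.343 RPM in vector at day 21, and of 327 RPM in HOXB13 and 0.375 RPM in vector at day 1. Every comparison of the viruses is also one between libraries with Y-linked transcripts and libraries with Xist, the RNA of the silenced X chromosome: at day 21 Ddx3y averaged 106 RPM in HOXB13 and 0.130 RPM in vector, and Xist 0.303 RPM in HOXB13 and 158 RPM in vector. That difference and the virus cannot be told apart. Mitochondrial genes took 1.70% to 1.78% of reads in HOXB13 and 2.53% to 2.84% in vector at day 21, and 1.35% to 1.42% in HOXB13 and 1.08% to 1.21% in vector at day 1. The test took the 13516 genes that reached 1 RPM in 3 or more libraries, and of the 4 members Fmo1, Fmo2 and Fmo5 were among them. Each of these 3 reached 1 RPM only in libraries of day 21, so it could enter the test only through a group where it was high, and the number of members with a day effect is no result about the family. The day effects of Fmo1 and Fmo5 below were also called when every gene with a read was fitted, with no filter on level, at adjusted p from 4.66e-11 to 0.0234.

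**Figure D1:**
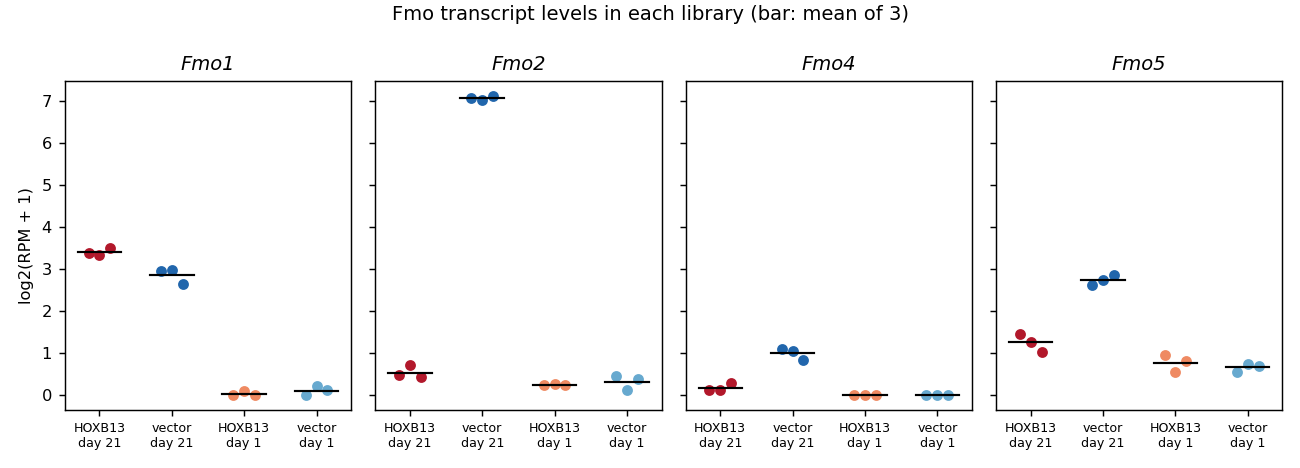
Level of Fmo1, Fmo2, Fmo4 and Fmo5 in every library as log2(RPM + 1), by group, with points for the 12 libraries and a bar at the mean of 3. Fmo2 is high in the 3 vector libraries of day 21, while Fmo1 is high in both groups of day 21.

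Fmo2 was abundant in 1 group. In HOXB13 cells at day 21 its levels were 0.379, 0.624 and 0.348 RPM, from 18 reads in all. In vector cells at day 21 they were 133, 130.1 and 138 RPM, from 5143 reads. At day 1 they were 0.175, 0.195 and 0.184 RPM in HOXB13 cells and 0.363, 0.0742 and 0.300 RPM in vector cells, from 9 reads in each group. The 3 vector libraries of day 21 stood far above the other 9, and the libraries of HOXB13 at day 21 overlapped those of vector at day 1. As a ratio of the group's reads over its summed library sizes, HOXB13 stood at 0.00333 of vector at day 21, which makes vector 300.1 times higher. Day 21 stood at 2.42 times day 1 in HOXB13 cells and at 562 times day 1 in vector cells. No interval is given for these ratios, because the set was selected on Fmo2. The 95% counting intervals given below for other members cover counting error only, since amplified reads are not independent molecules. In bulk RNA, fewer cells of a type and less RNA per cell cannot be told apart.

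Fmo1, next to Fmo2 on the chromosome, was present at day 21 with either virus. Its levels were 9.41, 9.12 and 10.4 RPM in HOXB13 cells and 6.69, 6.82 and 5.22 RPM in vector cells at day 21. At day 1 it had 1 read in the HOXB13 libraries together and 3 reads in the vector libraries, with a mean of 0.0216 ± 0.0374 RPM in HOXB13 and of 0.0744 ± 0.0742 RPM in vector cells (SD, n = 3 each). All 6 libraries of day 21 lay above all 6 of day 1, and at day 21 the HOXB13 libraries lay above the vector libraries without overlap. The ratio of day 21 to day 1 was 472 in HOXB13 cells (counting interval 84.2 to 18694) and 78.7 in vector cells (interval 26.6 to 384), and these wide intervals follow from the few reads at day 1.

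Fmo5 had a low level everywhere and its highest in vector cells at day 21. It stood at 1.74, 1.40 and 1.04 RPM in HOXB13 cells and at 5.14, 5.62 and 6.23 RPM in vector cells at day 21. At day 1 it stood at 0.931, 0.454 and 0.737 RPM in HOXB13 cells and at 0.454, 0.668 and 0.599 RPM in vector cells. The vector libraries of day 21 came first, the HOXB13 libraries of day 21 second, and the 2 groups of day 1 overlapped below them. These levels rest on 56 reads in HOXB13 and 218 in vector cells at day 21, and on 35 in HOXB13 and 22 in vector cells at day 1.

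Fmo4 was close to the limit of detection. It had 0.0759, 0.0779 and 0.209 RPM in HOXB13 cells and 1.14, 1.05 and 0.779 RPM in vector cells at day 21, from 5 reads in HOXB13 and 38 in vector cells, and no read in any library of day 1. It was left out of the test because only 2 libraries reached 1 RPM. The groups of day 21 did not overlap, and HOXB13 stood at 0.125 of vector (counting interval 0.0385 to 0.319). With reads over summed library sizes, Fmo4 at day 21 stood at 2.02 times a day 1 floor of 3 reads in HOXB13 cells. In vector cells it stood at 12.5 times that floor. These are ratios to an assumed floor and not lower bounds. The counting interval of day 1 over day 21 reached up to 0.902 in HOXB13 cells and up to 0.104 in vector cells.

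At day 1, the comparison of HOXB13 with vector asks whether the 2 cell groups differed before the osteogenic medium, with the difference in Xist and Y-linked transcripts named above. Neither Fmo1 nor Fmo5 passed limma's test, neither had an unadjusted p under 0.05, and neither passed with edgeR or DESeq2, while 72.5% of all tested genes passed limma's test and 13.3% also changed at least 2-fold. The log2 differences were -0.07 for Fmo1 (95% interval -0.32 to 0.18, adjusted p = 0.615) and 0.11 for Fmo5 (-0.17 to 0.39, adjusted p = 0.481). Fmo2, chosen for its low level in both of these groups, had -0.07 and no test. On this log2(RPM + 1) scale, differences between levels far below 1 RPM are compressed, and as ratios of reads the intervals were wider. HOXB13 stood at 1.23 of vector for Fmo5 (0.702 to 2.20) and at 0.258 for Fmo1 (0.00491 to 3.21). For Fmo2 the ratio was 0.774, given with no interval. Fmo4 had no read on either side. Those intervals hold the ratios that the read counts allow, with counting error alone, and are not limits of detection.

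At day 21 the members went in different directions, and 72.4% of all tested genes passed the test, with 16.6% also changed at least 2-fold. Fmo1 was higher in HOXB13 than in vector cells, by 0.56 ± 0.12 on the log2 scale (SE, adjusted p = 0.000262), less than 2-fold. Its means were 9.63 ± 0.656 RPM in HOXB13 and 6.24 ± 0.890 RPM in vector cells (SD, n = 3 each). Fmo5 was lower in HOXB13 than in vector cells, with a log2 difference of -1.48 ± 0.14 (adjusted p = 9.79e-10). Its means were 1.40 ± 0.350 RPM in HOXB13 and 5.66 ± 0.547 RPM in vector cells. In reads Fmo5 in HOXB13 cells stood at 0.245 of vector (0.179 to 0.329), a larger change than the log2 scale with its added 1 RPM shows. The log2 difference of Fmo2 was -6.54 and that of Fmo4 was -0.83, neither of them tested.

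**Figure D2:**
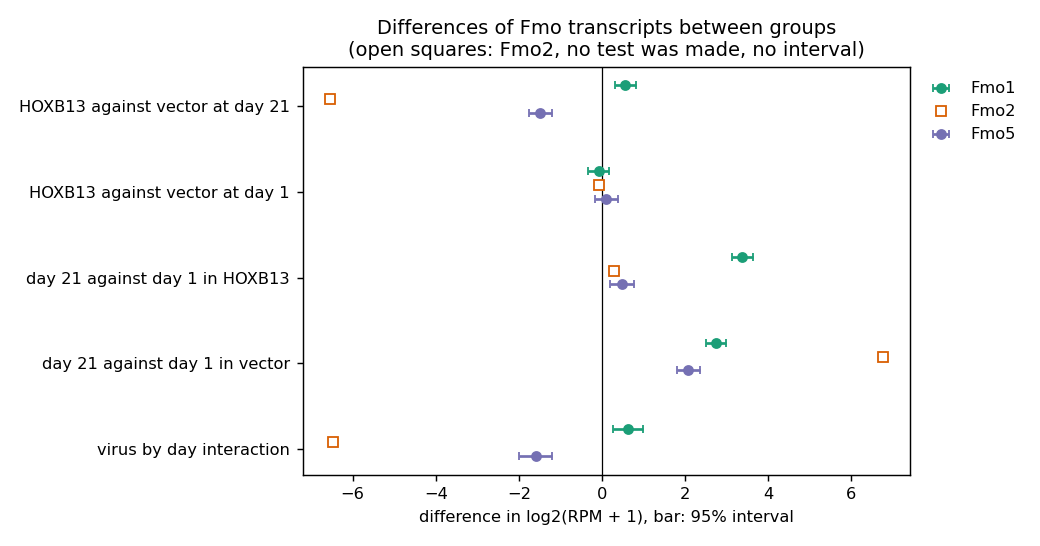
Log2(RPM + 1) differences of Fmo1, Fmo2 and Fmo5 in the 5 contrasts, with limma's 95% intervals. Open squares mark Fmo2, which has no test. At day 1 the intervals of Fmo1 and Fmo5 include 0, and at day 21 Fmo1 lies at 0.56 while Fmo2 lies at -6.54 and Fmo5 at -1.48.

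Within HOXB13 cells, 80.1% of tested genes differed between day 21 and day 1, and 23.6% also changed at least 2-fold. Fmo1 rose by 3.38 ± 0.12 on the log2 scale (adjusted p = 1.03e-17) and Fmo5 by 0.49 ± 0.14 (adjusted p = 0.00234), with a day 21 to day 1 ratio of reads of 1.94 for Fmo5 (interval 1.25 to 3.04). Fmo2 had a log2 difference of 0.29 and Fmo4 of 0.16, both untested.

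Within vector cells, 83.6% of tested genes differed between day 21 and day 1, and 28.1% also changed at least 2-fold. Fmo1 rose by 2.75 ± 0.12 (adjusted p = 5.34e-16) and Fmo5 by 2.08 ± 0.14 (adjusted p = 1.05e-12) on the log2 scale, with a day 21 to day 1 ratio of reads of 9.75 for Fmo5 (interval 6.28 to 15.9). Fmo2 had a log2 difference of 6.76 and Fmo4 of 0.99, both untested. The 2 day contrasts and the 2 virus contrasts share libraries, so they are given side by side and not correlated.

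The interaction tests whether the day effect in HOXB13 cells differed from that in vector cells, and 68.2% of genes passed it, 17.4% with at least a 2-fold difference of effects. For Fmo5 the day effect was smaller with HOXB13, by a log2 difference of -1.59 ± 0.19 (adjusted p = 1.32e-07). For Fmo1 it was larger with HOXB13, by 0.63 ± 0.17 (adjusted p = 0.00256). That call for Fmo1 ended with edgeR (adjusted p = 0.145) and DESeq2 (adjusted p = 0.138) on the reads, where the day 1 levels rest on 1 and 3 reads. Fmo2 had an interaction of -6.48 and Fmo4 of -0.83, both untested.

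Levels per kilobase use the merged length of all annotated exons of a gene, which may differ from that of the transcripts present. Comparisons between members depend on this length. On this scale the 4 members together reached 1.89 ± 0.0608 RPM per kb in HOXB13 and 26.1 ± 0.638 RPM per kb in vector cells at day 21. At day 1 they reached 0.161 ± 0.0351 in HOXB13 and 0.157 ± 0.0131 in vector cells (SD, n = 3 each). In HOXB13 cells at day 21, Fmo1 led with 80.9% ± 3.08 of this sum, followed by Fmo5 with 13.1% ± 3.44, Fmo2 with 4.29% ± 1.57 and Fmo4 with 1.71% ± 1.03. In vector cells at day 21, Fmo2 made up 91.4% ± 0.635, and Fmo5 at 3.82%, Fmo1 at 3.80% and Fmo4 at 1.03% were minor. The per-kilobase levels of Fmo5 (0.998 ± 0.0964) and Fmo1 (0.990 ± 0.141) overlapped between libraries there. Fmo1 thus stood at 1.53 ± 0.104 RPM per kb in HOXB13 and at 0.990 ± 0.141 in vector cells, and its larger share in HOXB13 cells came with a smaller sum. At day 1, Fmo5 held the largest mean share, 76.0% ± 10.6 in HOXB13 and 64.4% ± 10.7 in vector cells. Fmo2 came next, with 21.3% ± 5.98 in HOXB13 and 28.2% ± 18.3 in vector cells, from 9 reads in each group. That order did not hold in vector replicate 2 of day 1, where Fmo1 had 2 reads and Fmo2 had 1. No member had more than 35 reads in a group of day 1.

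**Figure D3:**
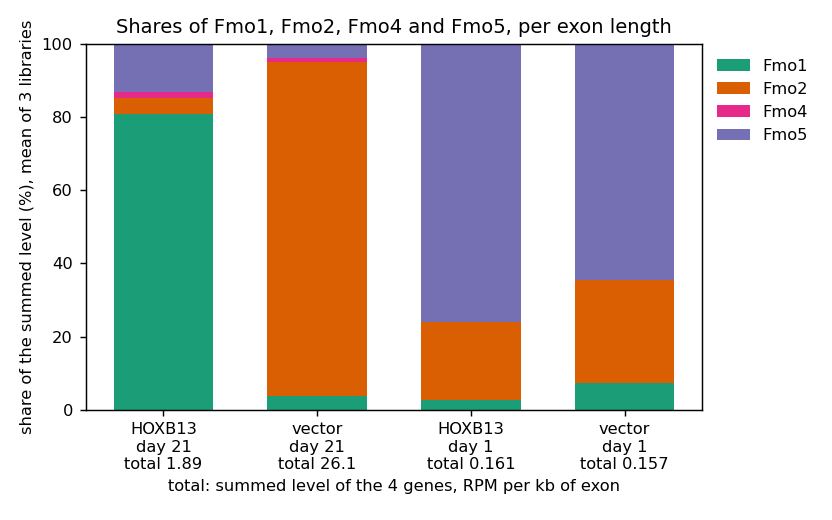
Share of Fmo1, Fmo2, Fmo4 and Fmo5 in their summed level per kb of exon (%), mean of 3 libraries in each group, with the sum in RPM per kb written under each bar. Fmo1 fills 80.9% of the bar for HOXB13 at day 21, and Fmo2 fills 91.4% of the bar for vector at day 21.

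Reads could be shared between near-identical genes, so stretches of 50 bases were compared between transcripts. None of the 5648 stretches of Fmo2 and none of the 3698 of Fmo4 occur in another gene. For Fmo1, 443 of 6314 (7.02%) do, and for Fmo5, 25 of 5764 (0.434%), in both cases outside the Fmo family.

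Prrc2c and Prrx1 flank Fmo4, Fmo1 and Fmo2 on chromosome 1. Their differences are not ranked against that of Fmo2, because the set was selected on Fmo2. Prrc2c, the nearest tested gene on the Fmo4 side, 158 kb from the start of Fmo2, averaged 361 RPM in HOXB13 and 380 RPM in vector cells at day 21, a log2 difference of -0.07 (adjusted p = 0.0146). Prrx1, a homeobox gene of mesenchymal cells that lies 415 kb away on the other side, averaged 95.7 RPM in HOXB13 and 135 RPM in vector cells, a log2 difference of -0.48 (adjusted p = 2.58e-09). Fmo1, which lies between Fmo4 and Fmo2, had a difference of the opposite sign from both. Around Fmo5 on chromosome 3, both flanking genes were also lower in HOXB13 cells at day 21. Chd1l, a chromatin remodeller, averaged 10.5 RPM in HOXB13 and 27.2 RPM in vector cells (log2 difference -1.30, adjusted p = 9.86e-14). Prkab2, a subunit of the energy sensor AMPK, averaged 14.8 RPM in HOXB13 and 64.2 RPM in vector cells (log2 difference -2.04, adjusted p = 1.50e-20). In vector cells Prkab2 differed between day 21 and day 1 by 0.27 on the log2 scale (adjusted p = 4.93e-05) and Chd1l by 0.13 (adjusted p = 0.114), against 2.08 for Fmo5.

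Genes whose pattern over the 12 libraries was most like that of each member were ranked by Pearson's r of log2(RPM + 1) among 11131 genes. As the libraries form 4 groups of 3, r mostly reflects the 4 group means and is a description. For Fmo2 the first 5 included Vit and Cldn10 (both r = 0.998) and Vmn2r3 (0.997). Cldn10, a tight junction claudin, averaged 0.197 RPM in HOXB13 and 9.49 RPM in vector cells at day 21, and 0 RPM in HOXB13 and 0.0747 RPM in vector cells at day 1. With r above 0.99 there were 26 genes for Fmo2, 93 for Fmo1 and 0 for Fmo5. For Fmo1 the first 5 were Slc43a2 and Gosr2 (both 0.998), Steap4, H6pd and Irak3 (all 0.997). Steap4, a metalloreductase, averaged 1657 RPM in HOXB13 and 565 RPM in vector cells at day 21, and 0.914 RPM in HOXB13 and 1.70 RPM in vector cells at day 1. For Fmo5 they were Tnfsf13 (0.990), then Abat, Heca, Tesc and Zrsr1 (all 0.985). Tnfsf13, a ligand of the tumour necrosis factor family, averaged 1.29 RPM in HOXB13 and 7.56 RPM in vector cells at day 21, and 0.222 RPM in HOXB13 and 0.290 RPM in vector cells at day 1. Between members r was 0.957 for Fmo2 and Fmo5, 0.671 for Fmo1 and Fmo5, and 0.497 for Fmo1 and Fmo2. Among the 11131 genes, 191 had r above 0.95 with Fmo2 and 191 with Fmo5, so the first value is not particular to the family.

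Genes that supply FMO cofactors changed little or in mixed directions at day 21. Between the viruses 72.4% of all tested genes were called at that day, and 16.6% also changed at least 2-fold. Of the 5 genes of FAD supply, 4 were tested, of which 0 were higher and 3 lower in HOXB13 cells by limma's test, none of them 2-fold, with a median log2 difference of -0.23 against 0.01 over all genes. Of 16 genes of NADPH supply, 15 were tested, with 5 higher and 9 lower and a median of -0.20. Past 2-fold were Aldh1l1, a folate enzyme that makes NADPH, at 56.1 RPM in HOXB13 and 11.5 RPM in vector cells (log2 difference 2.19, adjusted p = 6.17e-15), and the mitochondrial malic enzyme Me2, at 25.7 RPM in HOXB13 and 108 RPM in vector cells (-2.02, adjusted p = 2.03e-22). H6pd, which makes NADPH inside the endoplasmic reticulum, rose with day by 3.42 in HOXB13 cells (adjusted p = 2.36e-29) and by 2.88 in vector cells (adjusted p = 7.51e-28).

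Cytochrome P450 genes and their electron donors, the other monooxygenase system of the same membrane, had 24 tested genes of 31 listed. At day 21, 9 were higher and 12 lower in HOXB13 cells, of which 3 and 8 changed at least 2-fold, with a median of -0.24. Among all tested genes 72.4% were called in this contrast and 16.6% changed at least 2-fold. Cyp2s1 stood at 0.371 ± 0.127 RPM in HOXB13 cells, against 68.7 ± 2.85 RPM in vector cells (log2 difference -5.67, adjusted p = 4.17e-22). Cyp1b1, which oxidises oestradiol and polycyclic aromatic hydrocarbons, stood at 240 RPM in HOXB13 and 1781 RPM in vector cells (-2.89, adjusted p = 5.66e-27), and Cyp2d22 at 17.0 RPM in HOXB13 and 104 RPM in vector cells (-2.54, adjusted p = 5.54e-16). Cyp2f2, known from mouse airway club cells, stood at 49.7 ± 1.74 RPM in HOXB13 cells, against 4.18 ± 0.659 RPM in vector cells (3.30, adjusted p = 2.66e-17). Cyp2s1 and Cyp1b1 were also lower in HOXB13 cells at day 1, with log2 differences of -3.24 (adjusted p = 2.86e-17) and -2.35 (adjusted p = 5.48e-25), where neither Fmo1 nor Fmo5 passed. With day, 17 P450 and electron transfer genes rose and 5 fell in HOXB13 cells, and 20 rose and 1 fell in vector cells, where 80.1% of all tested genes were called in HOXB13 and 83.6% in vector cells.

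Hydrolases, conjugating enzymes and other oxidases, which act on the same foreign compounds, had 34 tested genes of 40. At day 21, 6 were higher and 23 lower in HOXB13 cells, 2 and 15 of them at least 2-fold, against 72.4% called and 16.6% at least 2-fold over all genes, with a median of -0.62. The carboxylesterase Ces2g stood at 1.49 RPM in HOXB13 and 63.9 RPM in vector cells (-4.71, adjusted p = 2.13e-19) and the aldehyde oxidase Aox3 had a log2 difference of -4.09 (adjusted p = 8.25e-18). The glutathione S-transferases Gsta3 and Gsta4 stood at 1.91 and 6.16 RPM in HOXB13 and at 33.3 and 64.7 RPM in vector cells (-3.56, adjusted p = 2.22e-17, and -3.20, adjusted p = 2.77e-21). With day, 28 genes of this list rose and 4 fell in HOXB13 cells (median 0.64), and 31 rose and 1 fell in vector cells (median 1.77), against medians of -0.01 and 0.00 over all genes, of which 80.1% were called in HOXB13 and 83.6% in vector cells. Xdh, which oxidises purines, rose with day by 5.46 in HOXB13 cells (adjusted p = 3.52e-32) and by 5.07 in vector cells (adjusted p = 2.44e-31), as Fmo1 did with both viruses. The interaction was negative for 24 and positive for 5 of the 34 genes, against 68.2% of all genes called in either direction, and the lowest values past 2-fold were those of Gsta3 (-3.70, adjusted p = 1.85e-14) and Gsta4 (-3.18, adjusted p = 7.22e-18).

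**Figure D4:**
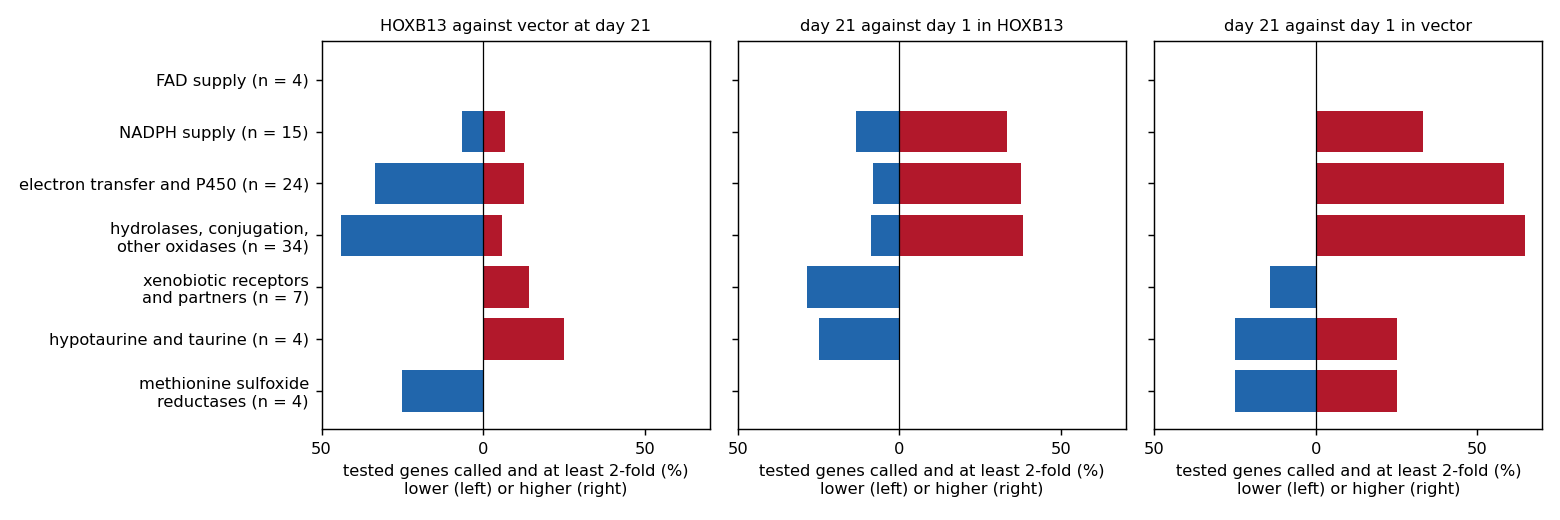
Share of tested genes in each of 7 lists that passed the test and changed at least 2-fold, lower to the left and higher to the right, in 3 contrasts. Of the 34 hydrolase, conjugation and other oxidase genes, 15 are lower in HOXB13 at day 21, and 22 are higher at day 21 in vector.

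The remaining lists were small, and 72.4% of all tested genes were called at day 21. Of 9 genes of receptors for foreign compounds and their partners, 7 were tested, and 5 were higher and 2 lower in HOXB13 cells at day 21 (median 0.69). Ahrr, the repressor of the aryl hydrocarbon receptor, was the one past 2-fold, at 2.62 RPM in HOXB13 and 0.759 RPM in vector cells (1.04, adjusted p = 1.65e-07), though without TMM factors it was just under 2-fold (0.99). It stood at 50.8 RPM in HOXB13 and 0.781 RPM in vector cells at day 1. Of 6 genes around hypotaurine, the substrate that FMO1 turns into taurine, 4 were tested, with 2 higher and 0 lower at day 21 (median 0.08). Cdo1, cysteine dioxygenase at the head of that route, stood at 72.1 RPM in HOXB13 and 12.5 RPM in vector cells at day 21 (2.44, adjusted p = 1.70e-19). Of the 4 methionine sulfoxide reductases, which undo sulfur oxidation, 1 was higher and 1 lower (median -0.07), the lower one being Msrb2 at 1.92 RPM in HOXB13 and 7.17 RPM in vector cells (-1.50, adjusted p = 2.98e-09).

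Markers of other cell types differed between the same groups as Fmo2, and their part in the result was not tested. All 10 fibroblast markers had reads in every group. Their sum was 30148 to 31307 RPM in HOXB13 and 26333 to 29138 RPM in vector libraries at day 21. At day 1 it was 16451 to 16762 RPM in HOXB13 and 27754 to 28522 RPM in vector libraries. Single markers went both ways at day 21, with 4 higher and 6 lower in HOXB13 cells, where 72.4% of all tested genes were called. Past 2-fold were Thy1 (log2 difference -2.56) and Dcn (-1.18), and in the other direction Pdgfra (1.17), Pdgfrb (1.39) and Vim (1.07). Col3a1, a large part of the sum, averaged 11650 RPM in HOXB13 and 6363 RPM in vector cells. The 9 mesothelial markers summed to 100.1 to 119 RPM in HOXB13 and 3771 to 3869 RPM in vector libraries at day 21, and to 221 to 236 RPM in HOXB13 and 1289 to 1334 RPM in vector libraries at day 1. All 9 were lower in HOXB13 cells at day 21, by at least 2-fold, where 16.6% of all tested genes were called and changed that much. With day in vector cells 7 of the 9 rose and 2 fell, where 83.6% of all tested genes were called. At day 1, 8 of the 9 were lower in HOXB13 cells and 1 was higher, where 72.5% of all tested genes were called. Epithelial markers summed to 0.626 to 1.17 RPM in HOXB13 and 64.7 to 68.1 RPM in vector libraries at day 21, with Krt5 at 0 reads in both groups and Cldn4 and Cldn7 at 0 in vector. Cdh1 and Krt14 made up nearly all of the vector sum, while Epcam had 8 reads in HOXB13 and 2 in vector libraries. Osteoblast markers summed to 43.6 to 45.4 RPM in HOXB13 and 256 to 261 RPM in vector libraries at day 21, with Dmp1 at 0 in both groups and Bglap at 0 in HOXB13. That difference was one of Alpl, at 13.4 RPM in HOXB13 and 232 RPM in vector cells, while Runx2 was higher in HOXB13 cells (30.9 RPM in HOXB13 and 25.6 RPM in vector cells, log2 difference 0.27, adjusted p = 0.000267) and Ibsp had 17 reads in HOXB13 and 2 in vector cells. Adipocyte markers summed to 361 to 368 RPM in HOXB13 and 62.9 to 74.4 RPM in vector libraries at day 21, nearly all of it Fabp4. Of the 3 tested ones Fabp4 was higher in HOXB13 cells (362 RPM in HOXB13 and 60.7 RPM in vector cells), Pparg was lower (0.722 RPM in HOXB13 and 6.06 RPM in vector cells, log2 difference -2.03, adjusted p = 7.02e-14), and Cidec was not called (adjusted p = 0.538). The organs best known for FMO1 and FMO2 are liver and lung. The 4 hepatocyte markers summed to 3.34 to 4.52 RPM in HOXB13 and 0.934 to 1.79 RPM in vector libraries at day 21, with Ttr at 0 reads in both groups. The HOXB13 sum was nearly all Alb (3.91 RPM in HOXB13 and 0.157 RPM in vector cells), and Apoa1 had 4 reads in HOXB13 and 45 in vector cells. Of the 4 markers of airway club cells, Scgb3a2 and Sftpc were at 0 reads in every group, and the sum of 48.4 to 51.5 RPM in HOXB13 and 3.82 to 4.89 RPM in vector libraries at day 21 was nearly all Cyp2f2.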

How the data were processed

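RNA was sequenced from 12 libraries, 3 in each of 4 groups, and samples were grouped by the labels. Values are deposited as signal: reads of a gene divided by the authors' TMM-scaled library size, per 1000000 (RPM). All values above 0 were whole multiples of the value of 1 read within 0.01 (100% in each library), so reads were recovered. The submitters' processing notes name STAR 2.7.2a, HTSeq 0.6.1, edgeR, DESeq2 and the human build GRCh38, while gene identifiers are those of mouse Ensembl. Which mouse build the authors used is not stated in the labels, and coordinates here are those of GENCODE M21, in which 55394 of 55573 identifiers were found. Per the labels' protocols the NuGEN kit keeps strand, but no label gives the strand setting of the counting.

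Genes that reached 1 RPM in 3 or more libraries were fitted as log2(RPM + 1) by limma 3.58.1 (trended eBayes, R 4.3.3), with 1 mean per group over the 12 libraries, two-sided tests and Benjamini-Hochberg adjustment over 13516 genes at 0.05. A second rule also asked for 2-fold. Fold changes on this scale understate those of low genes. On the recovered reads edgeR 4.0.16 (quasi-likelihood) called 9755 genes at day 21, where limma called 9782. Ratios of reads have exact 95% intervals, left out for Fmo2. The members and lists were chosen with earlier results of these data known. The text names the members, the 5 genes most like each tested member, the nearest tested genes on each side, and from each list up to 4 genes at day 21 and 2 in the other contrasts, by size among those called and at least 2-fold changed, of which a part is printed, and some genes that this rule names are not reported here. Residuals of equal replicate numbers correlated at -0.0694 to 0.0603, so no pairing was used. Data of 13127 genes were simulated, with 12932 unchanged and the rest changed in HOXB13 at day 21 only. For HOXB13 against vector at day 21, limma found 91.5% of 2-fold and 62.5% of 1.2-fold changes and called 0.0851% of unchanged genes. In the measured data 72.4% of tested genes were called in that contrast, so these shares may differ there.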

Additional observations from a re-analysis of the deposited data

Results flagged for a closer look

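The day effect differed between the viruses, by the interaction test, for Fmo1 and Fmo5. The difference of the day effects, HOXB13 minus vector on the log2(RPM + 1) scale, was 0.63 for Fmo1 (adjusted p = 0.00256) and -1.59 for Fmo5 (adjusted p = 1.32e-07). Among all tested genes 68.2% passed the same test. The Fmo1 value was the one whose call ended when reads were modelled directly.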

How the results depend on the processing

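Each result was recomputed with a pseudocount of 0.25 or 4, with all genes that had a read or those reaching 5 RPM, with median-of-ratios scaling, no TMM factors, quantile normalization, a replicate block, only the libraries of the comparison, edgeR and DESeq2 on reads, and without each library in turn. All directions and calls of Fmo1 and Fmo5 that were past the threshold held, with 1 exception: the Fmo1 interaction was 2.19 with edgeR (adjusted p = 0.145) and 2.46 with DESeq2 (adjusted p = 0.138). Sizes moved with the pseudocount and the tool. Over all alternatives the log2 difference of Fmo1 ran from 1.76 to 8.80 for day in HOXB13 and from 1.33 to 6.34 for day in vector, and that of Fmo5 from -2.03 to -0.84 at day 21, 0.20 to 0.99 for day in HOXB13, 1.08 to 3.32 for day in vector and -2.35 to -0.88 for the interaction. Under pseudocounts of 0.25 and 4, edgeR and DESeq2, the log2 difference of Fmo2 for HOXB13 against vector at day 21 was -7.60, -4.95, -8.19 and -8.23, that of day in vector 8.13, 5.02, 9.09 and 9.17, that of day in HOXB13 0.67, 0.0883, 1.21 and 1.30 (0.14 with quantile normalization), and the interaction -7.46, -4.93, -7.88 and -7.87, and at day 1 edgeR and DESeq2 gave -0.31 and -0.36. For Fmo4, not fitted by quantile normalization, edgeR and DESeq2 for its low level, pseudocounts of 0.25 and 4 gave -1.75 and -0.28 at day 21, 0.55 and 0.0428 for day in HOXB13, 2.30 and 0.32 for day in vector, and -1.75 and -0.28 for the interaction. With the replicate block 9750 genes were called at day 21, and it changed no call of a member. Without TMM factors the median log2 difference of all genes at day 1 was 0.15, against -0.03, and 6675 genes were higher and 3285 lower in HOXB13 at day 1, against 4586 and 5210. The split was 3865 and 7342 for day in HOXB13, against 5341 and 5489, and 2821 and 6841 for the interaction, against 4941 and 4279. The list genes named in the text from the pathway lists kept their direction and their adjusted p under 0.05 with the 3 other scalings, while Ahrr at day 21 was under 2-fold without TMM factors. Depth limits Fmo1 at day 1 and Fmo4 throughout.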
